A study of Mus musculus with 22 samples.

Results

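The flavin-containing monooxygenases (FMOs) Fmo1, Fmo2, Fmo4 and Fmo5 were examined in the livers of tumour-bearing and sham-injected mice. They were taken from the deposited count table by symbol, by matching each Ensembl gene to its GRCm38 annotation, a rule that uses the name alone. All 4 members named were present among the 15448 genes of the table, and all 4 were among the 14785 genes tested. The material was polyA RNA from whole liver of 22 male wild-type CD2F1 mice, 1 library per mouse. The C26-TDCA group (n = 8) carried C26 tumour cells and was given 10 mg/kg taurodeoxycholic acid (TDCA) daily into the peritoneum, the C26 group (n = 8) carried C26 cells and was left untreated, and the CT group (n = 6) had a sham injection and is labelled as vehicle-treated and free of tumour. C26 is a mouse colon carcinoma line whose transplants cause wasting (cachexia), and TDCA is a bile acid, deoxycholic acid from gut bacteria joined to taurine. The age of the mice is not given in the sources used here. Library totals ran between 20.5 M and 28.3 M counts for C26-TDCA, between 17.5 M and 28.1 M for C26, and between 16.5 M and 25.3 M for CT, and a member had between 231 and 20555 counts in any library.

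FMOs are flavoproteins of the endoplasmic reticulum membrane. They hold FAD, take electrons directly from NADPH, and add an oxygen atom from O2 to nitrogen, sulfur and related atoms of drugs, dietary amines and some endogenous metabolites. Unlike the microsomal cytochromes P450 they need no separate reductase. In liver they act beside the P450s, and in mice the level of several family members differs between the sexes.

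Fmo4, Fmo1 and Fmo2 lie next to each other on the minus strand of chromosome 1 in GRCm38, at chr1:162793188-162813972, chr1:162829561-162866610 and chr1:162874317-162898726, so that the 3 genes span 106 kb. Fmo5 lies apart on the plus strand of chromosome 3, at chr3:97628804-97655282. The 4 genes are annotated as protein coding (ENSMUSG00000026692, ENSMUSG00000040181, ENSMUSG00000040170 and ENSMUSG00000028088 in that order), and 0 other GENCODE M21 genes overlap any of them on either strand. Counts are 1 total per gene, so parts of a gene, such as single exons or untranslated regions, were not told apart. Windows before RefSeq starts are shown for Fmo4, Fmo2 and Fmo5, which all fell in both tumour groups against CT, so that their letters can be set side by side. Fmo1 is named only, because the RefSeq windows used here include none for it. Each window is the 250 bases before a RefSeq start in GRCm38.p6, written 5′ to 3′ on the gene's strand, with letters that match a searched motif in capitals. Fmo2 has 2 such starts. RefSeq starts can lie inside the gene as GENCODE draws it: the Fmo4 window lies wholly within the gene span given above, the Fmo5 window and the second Fmo2 window lie mostly within it, and the first Fmo2 window lies outside it. The windows are chr1:162812550-162812799 (minus) for Fmo4, chr1:162898759-162899008 and chr1:162898494-162898743 (minus) for Fmo2, and chr3:97628769-97629018 (plus) for Fmo5.
Fmo4: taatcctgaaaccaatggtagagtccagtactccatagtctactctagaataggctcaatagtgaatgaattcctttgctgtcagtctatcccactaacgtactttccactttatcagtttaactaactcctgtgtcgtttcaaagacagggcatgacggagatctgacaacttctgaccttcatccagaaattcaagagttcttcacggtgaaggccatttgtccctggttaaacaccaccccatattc
Fmo2, first start: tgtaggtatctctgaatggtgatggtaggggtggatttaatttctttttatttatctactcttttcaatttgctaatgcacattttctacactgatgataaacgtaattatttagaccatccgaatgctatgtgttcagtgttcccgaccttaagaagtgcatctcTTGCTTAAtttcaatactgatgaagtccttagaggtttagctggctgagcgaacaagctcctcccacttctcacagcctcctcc
Fmo2, second start: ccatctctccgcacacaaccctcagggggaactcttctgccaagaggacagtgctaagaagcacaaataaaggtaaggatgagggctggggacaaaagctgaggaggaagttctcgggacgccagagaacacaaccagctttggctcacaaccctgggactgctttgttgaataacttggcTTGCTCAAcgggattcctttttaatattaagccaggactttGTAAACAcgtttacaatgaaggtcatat
Fmo5: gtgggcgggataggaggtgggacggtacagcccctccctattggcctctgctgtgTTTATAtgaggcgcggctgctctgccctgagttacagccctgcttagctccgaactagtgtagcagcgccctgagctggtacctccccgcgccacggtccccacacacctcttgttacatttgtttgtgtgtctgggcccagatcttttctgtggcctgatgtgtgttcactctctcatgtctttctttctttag

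Among Fmo4, Fmo2 and Fmo5, no searched motif matched in the windows of more than 1 gene, and Fmo1 was not searched. Searched on both strands were the TATA box (TATAAA), FoxO (GTAAACA), STAT (TTCNNNGAA), HNF4 (AGGTCA, any base, then AGGTCA again), the antioxidant response element (TGACNNNGC), C/EBP (TTNNGCAA) and the E-box (CACGTG), and no matches overlapped. Of all 32851 windows of the same length in the RefSeq table, 12.4%, 3.17%, 7.02%, 0.0335%, 10.2%, 9.56% and 6.02% held these motifs in that order. The Fmo4 window held none of them. Both Fmo2 windows held a C/EBP match on the opposite strand, 84 to 77 and 69 to 62 bases before the start, and the second also held a FoxO match 28 to 22 bases before it. The Fmo5 window, which has the highest GC content of the 4 (56%, against 39.6% to 47.6%), held the letters of the TATA box on the opposite strand, 195 to 190 bases before the start. A match describes the letters only and is not evidence of binding.

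The first comparison asked how FMO transcripts in tumour-bearing liver differed from those in sham-injected liver. Since CT is labelled as vehicle-treated and the C26 mice are described as untreated, tumour and vehicle treatment cannot be told apart in it. All 4 members fell in C26, and in none did a C26 library reach the lowest CT library. Fmo1 fell about 9.17-fold and Fmo2 about 7.84-fold, while Fmo5 fell 2.55-fold and Fmo4 1.71-fold. Of the 14785 genes tested with edgeR's quasi-likelihood test, 29.2% were called lower at a Benjamini-Hochberg adjusted p under 0.05 and 58.1% were called in either direction, and the groups did not overlap, with C26 lower, for 15.3% of all genes. Ranked from the largest fall by log2 fold change, Fmo1 was number 116 of all genes, Fmo2 number 137, Fmo5 number 687 and Fmo4 number 1711. In whole-liver RNA, fewer cells of a type and less RNA per cell cannot be told apart.

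Fmo1 encodes the enzyme that oxygenates many tertiary amines and sulfur compounds and that has been shown to oxidise hypotaurine to taurine. Its level, in CPM (counts scaled to a common library size with the TMM method), was 13.3 at the lowest, 32.1 at the median and 71.0 at the highest in C26, against 272, 296 and 318 CPM in CT. The highest C26 library, number 02, was therefore far below every CT library. The means were 32.2 ± 19.0 CPM in C26 (SD, n = 8) and 294 ± 18.2 CPM in CT (n = 6), and the log2 fold change was -3.20 (SE 0.29, edgeR adjusted p = 1.54e-09).

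Fmo2 encodes the form that predominates in the lung of many mammals. It stood at 11.7, 18.1 and 40.5 CPM (lowest, median, highest) in C26, against 102, 161 and 219 CPM in CT. The groups did not overlap, and the highest C26 library was number 08. Means were 20.4 ± 8.85 CPM in C26 and 160 ± 44.5 CPM in CT (log2 fold change -2.97, SE 0.23, edgeR adjusted p = 7.39e-11). Of 6 lung epithelial marker genes, 5 (Sftpc, Sftpb, Scgb1a1, Scgb3a2 and Ager) have no row in the table, and the remaining one, Sftpa1, averaged 3.73 CPM in C26-TDCA, 2.68 CPM in C26 and 2.23 CPM in CT; it was not called in C26 against CT (adjusted p = 0.422) but was called higher in C26-TDCA against CT (log2 fold change 0.75, edgeR adjusted p = 0.0272).

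Fmo5 encodes an atypical member that acts mainly as a Baeyer-Villiger monooxygenase on ketones, and mice without it are lean with lower plasma cholesterol. It had 122, 263 and 473 CPM in C26, against 590, 698 and 876 CPM in CT. The gap between the highest C26 and the lowest CT library was narrow beside the spread of either group. Means were 280 ± 123 CPM in C26 and 714 ± 130 CPM in CT (log2 fold change -1.35, SE 0.24, edgeR adjusted p = 4.05e-05).

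Fmo4 encodes a member whose substrates are little known. It was at 13.8, 15.5 and 17.5 CPM in C26, against 21.7, 28.2 and 31.7 CPM in CT. The C26 libraries lay close together, below all of CT. Means were 15.8 ± 1.33 CPM in C26 and 27.0 ± 4.04 CPM in CT (log2 fold change -0.77, SE 0.10, edgeR adjusted p = 7.46e-07).

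**Figure D1:**
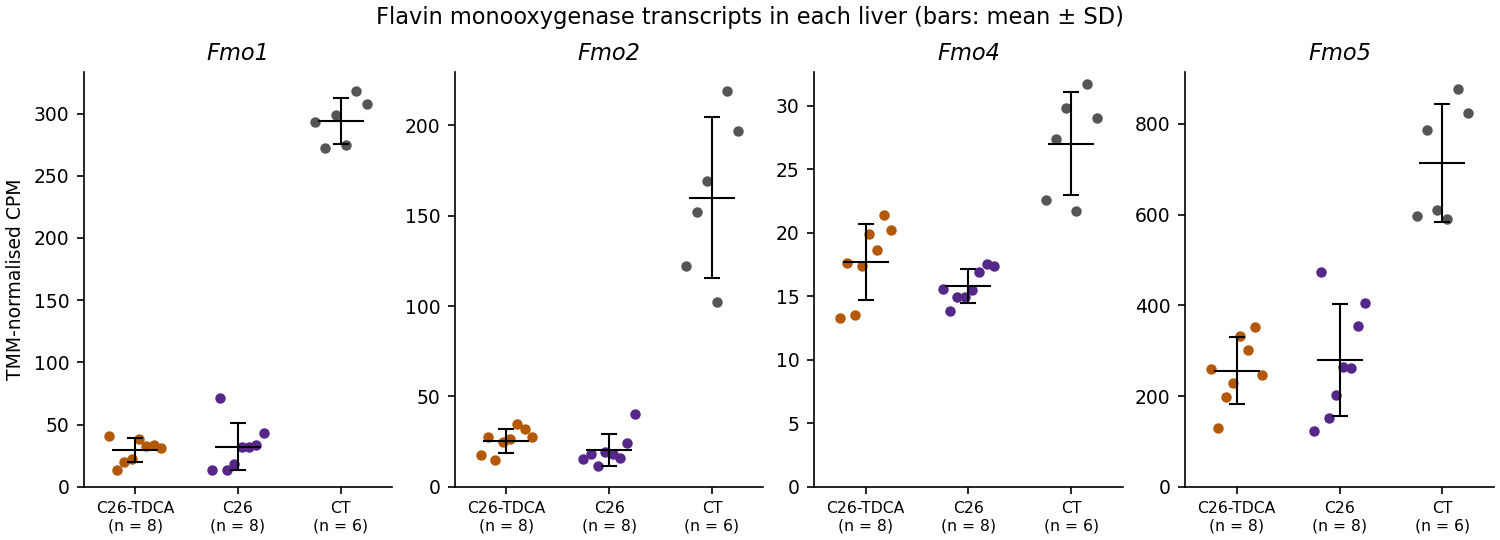
TMM-normalised CPM (y axis, from 0, a separate scale for each gene) of the 4 members in every liver, with 1 point per mouse in C26-TDCA (n = 8), C26 (n = 8) and CT (n = 6) and black bars for the mean ± SD. For each gene all 16 tumour libraries lie below the 6 CT libraries, most widely for Fmo1, whose highest tumour library has 71.0 CPM and lowest CT library 272 CPM.

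Whether the members fell by different amounts was tested on the log2 ratio of their counts within each library, in which library scaling cancels, with exact permutation tests (two-sided), and p-values were adjusted over the 12 tests made. Fmo1 lost ground to Fmo5 and to Fmo4. The log2 ratio of Fmo1 to Fmo5 averaged -3.19 ± 0.25 in C26 and -1.26 ± 0.24 in CT (difference -1.93), and that of Fmo1 to Fmo4 averaged 0.82 ± 0.84 in C26 and 3.45 ± 0.18 in CT (difference -2.64). Fmo2 did the same, with a difference of -1.55 against Fmo5 and of -2.25 against Fmo4. Each of these 4 had an exact permutation p of 3.33e-04, the smallest that 3003 regroupings allow, and an adjusted p of 9.99e-04, with no overlap between the groups. Between Fmo1 and Fmo2 the difference was -0.38 (exact p = 0.256, adjusted p = 0.375), and the ratio ranged from -0.22 to 1.97 in C26 and from 0.54 to 1.44 in CT. Between Fmo4 and Fmo5 it was 0.70 (exact p = 0.0296, adjusted p = 0.0711), and the adjusted p was 0.00839 without C26 02 and 0.0455 without C26 08, so that this ratio depended on single libraries.

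The make-up of the family transcripts differed with these unequal falls. Levels of different genes were compared as CPM per kb of annotated exon, with no test on sums or shares. In CT the order was Fmo5 (104 to 154 CPM per kb), Fmo1 (43.1 to 50.4), Fmo2 (18.1 to 39.1) and Fmo4 (5.86 to 8.56), and no neighbours in this order overlapped. In C26, Fmo5 again stood first (21.4 to 83.4 CPM per kb), but Fmo1 (2.10 to 11.3), Fmo2 (2.09 to 7.22) and Fmo4 (3.72 to 4.73) overlapped and had no clear order. The sum over the 4 members averaged 62.3 ± 25.6 CPM per kb in C26 and 208 ± 32.4 in CT. Fmo5 made up 78.0% ± 3.66 of that sum in C26 and 60.2% ± 2.88 in CT, Fmo1 made up 7.79% ± 1.62 and 22.7% ± 2.86 in the same groups, Fmo2 made up 6.18% ± 1.88 in C26 and 13.5% ± 2.09 in CT, and Fmo4 made up 7.98% ± 3.32 in C26 and 3.51% ± 0.322 in CT. The exon length is that of all annotated exons of a gene, so a gene that uses a short isoform is set too low on this scale. This length and that of the longest transcript were 6304 and 3106 bases for Fmo1, 5609 and 4066 for Fmo2, 3707 and 2683 for Fmo4, and 5675 and 5197 for Fmo5. The level and share of Fmo1 may therefore be set too low beside those of Fmo5.

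**Figure D2:**
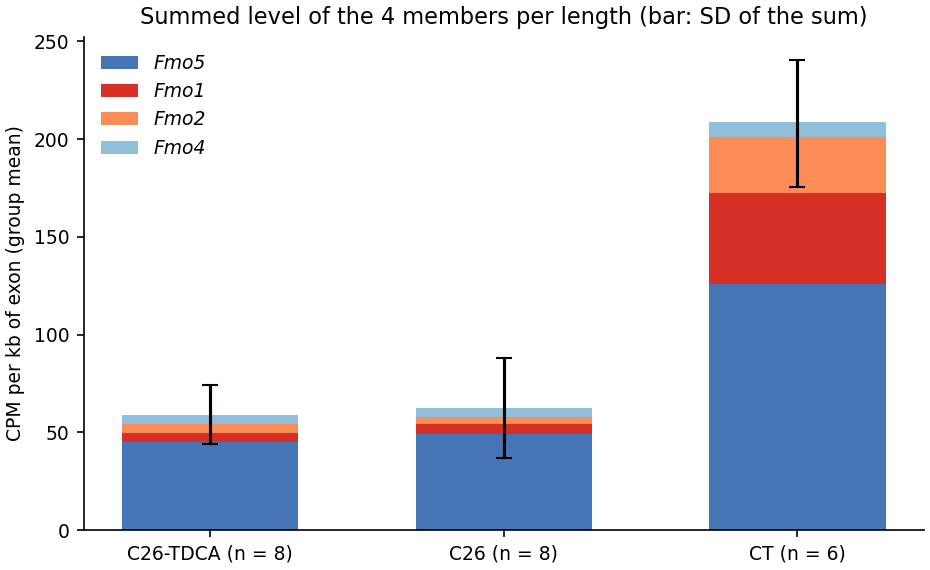
Mean level per kb of annotated exon (y axis, CPM per kb) of Fmo5, Fmo1, Fmo2 and Fmo4, stacked from bottom to top, in C26-TDCA (n = 8), C26 (n = 8) and CT (n = 6); black bars give the SD of the sum. The sums average 59.0, 62.3 and 208 CPM per kb in that order, and Fmo5 is the largest part of each.

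The spread within a group differed between the members as well. Fmo1 had a coefficient of variation of 58.9% in C26 and 6.18% in CT, beside a median of 12.1% and 8.49% in those groups over the 7534 tested genes averaging at least 10 CPM. Fmo4 was the reverse, at 8.42% in C26 and 15.0% in CT. The other tumour group did not share the low Fmo4 spread. In C26-TDCA the coefficient was 16.7% for Fmo4 and 33.0% for Fmo1, beside a median of 10.6%. Within C26, Fmo1 varied 5.36-fold from the lowest to the highest library and Fmo5 3.89-fold, and libraries 01 and 03 were the lowest and 02 and 08 the highest for both. Their log2 ratio nevertheless stayed between -3.47 and -2.74 in C26 and between -3.38 and -2.65 in C26-TDCA, with an SD of 0.25 and 0.24, while the SD of log2 CPM in C26 was 0.84 for Fmo1 and 0.68 for Fmo5. Library C26 02, the highest for Fmo1 and Fmo5, was the lowest of its group for Fmo4 (13.8 CPM) and had 18.2 CPM for Fmo2, close to the group median. In C26-TDCA, library 02 was the lowest for Fmo1 (13.6 CPM) and Fmo5 (129 CPM) but had 27.3 CPM for Fmo2 and 17.6 CPM for Fmo4, near the middle of its group. The library totals did not follow this order, at 28.1 M counts in C26 01, 23.6 M in C26 03, 27.2 M in C26 08 and 17.5 M in C26 02.

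The second comparison asked whether daily TDCA altered these transcripts in tumour-bearing mice. Since the C26 mice are described as untreated, TDCA and the daily injection itself cannot be told apart in it. None of the 4 members was called between C26-TDCA and C26, where 1.97% of all genes were called by edgeR, 1.73% as higher and 0.237% as lower, and where the groups did not overlap, with C26-TDCA lower, for 0.0541%. Fmo1 stood at 13.6, 32.2 and 41.2 CPM (lowest, median, highest) in C26-TDCA, against 13.3, 32.1 and 71.0 CPM in C26 (log2 fold change -0.14, SE 0.27, adjusted p = 0.860). The medians were nearly equal and the ranges overlapped. Fmo5 stood at 129, 253 and 352 CPM in C26-TDCA, against 122, 263 and 473 CPM in C26 (-0.13, SE 0.23, adjusted p = 0.839).

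Fmo2 and Fmo4 had positive log2 fold changes that did not pass the test. Fmo2 stood at 14.6, 26.8 and 34.7 CPM in C26-TDCA, against 11.7, 18.1 and 40.5 CPM in C26 (0.33, SE 0.21, adjusted p = 0.480). Fmo4 stood at 13.3, 18.1 and 21.4 CPM in C26-TDCA, against 13.8, 15.5 and 17.5 CPM in C26 (0.17, SE 0.10, adjusted p = 0.430). The unadjusted p was 0.614 for Fmo1, 0.135 for Fmo2, 0.104 for Fmo4 and 0.575 for Fmo5, and DESeq2 called 0 of the 4 as well. Approximate 95% intervals of the fold between C26-TDCA and C26 ran from 0.634 to 1.31 for Fmo1, 0.941 to 1.67 for Fmo2, 0.982 to 1.28 for Fmo4 and 0.672 to 1.24 for Fmo5. All 4 intervals include 1, and missing the threshold does not show that the levels are equal. None of the 6 ratios between members was called either (adjusted p of 0.247 to 0.739 over the 12 exact permutation tests), although the ratio of Fmo2 to Fmo4, at 0.50 ± 0.23 in C26-TDCA and 0.28 ± 0.47 in C26, had an adjusted p of 0.0455 without C26 08, where the difference was 0.36.

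**Figure D3:**
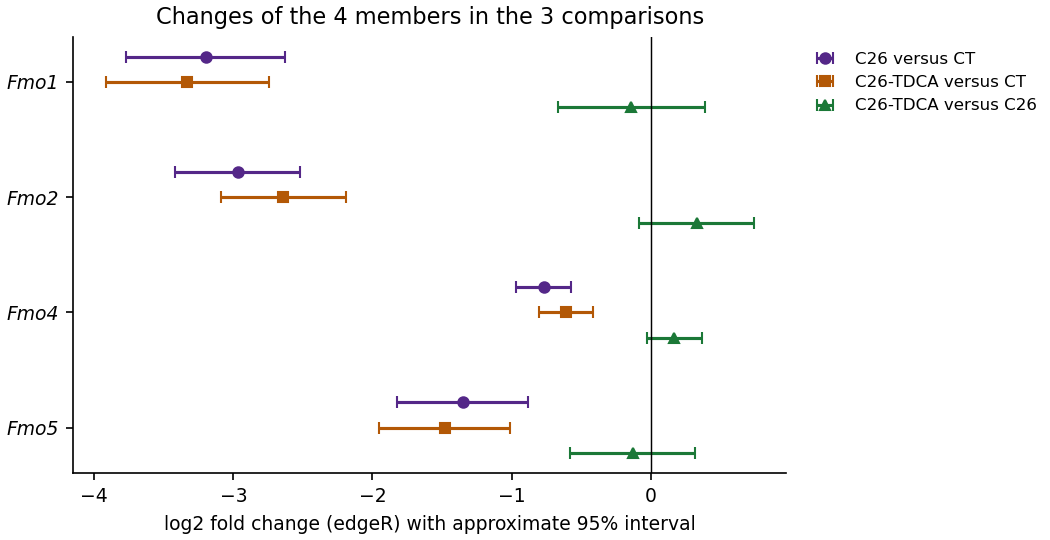
Log2 fold change of each member (x axis) in C26 versus CT, C26-TDCA versus CT and C26-TDCA versus C26, from the edgeR fit over all genes, with approximate 95% intervals as bars. The values against CT run from -3.33 to -0.61 with intervals below 0, and the 4 intervals of C26-TDCA versus C26 include 0.

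The TDCA-treated tumour group was also set against sham-injected mice, which serve as controls in the first comparison too. All 4 members fell here as well, where 28.2% of genes were called lower and 28.7% higher, 57.0% in either direction, and 16.2% did not overlap with C26-TDCA lower. Fmo1 averaged 29.2 ± 9.63 CPM in C26-TDCA, against 294 ± 18.2 CPM in CT (log2 fold change -3.33, SE 0.30, edgeR adjusted p = 7.94e-10). Fmo2 averaged 25.6 ± 6.64 CPM in C26-TDCA and 160 ± 44.5 CPM in CT (-2.64, SE 0.23, adjusted p = 4.40e-10). Fmo5 averaged 256 ± 73.2 CPM in C26-TDCA and 714 ± 130 CPM in CT (-1.48, SE 0.24, adjusted p = 1.31e-05), and Fmo4 averaged 17.7 ± 2.97 CPM in C26-TDCA and 27.0 ± 4.04 CPM in CT (-0.61, SE 0.10, adjusted p = 2.08e-05). No C26-TDCA library reached the lowest CT library for any member. Fmo5 made up 75.7% ± 4.30 of the summed per-length level in C26-TDCA and 60.2% ± 2.88 in CT.

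Among other genes near the members, some fell, 1 rose and most were not called in C26 against CT. Of all genes tested, 29.2% were called lower and 28.9% higher. The neighbours are too few to show whether these loci differ from those shares. Within 500 kb of the chromosome 1 genes, 4 genes outside the family were tested, of which 2 fell and 2 were not called in C26 against CT. The nearest called below the cluster was Prrc2c, 52.6 kb away (log2 fold change -0.46, SE 0.15, adjusted p = 0.01000), and the only one tested above it, Gorab, was not called (0.10, SE 0.15, adjusted p = 0.613). Around Fmo5, 7 genes were tested, of which 1 rose, 1 fell and 5 were not called. Prkab2, whose start lies 2.91 kb beyond the end of Fmo5, was not called (0.31, SE 0.17, adjusted p = 0.122), and Chd1l, 18.6 kb on the other side, was not called (0.14, SE 0.13, adjusted p = 0.376). The nearest called were Acp6 (-0.60, SE 0.06), 452 kb below, and Sec22b (0.25, SE 0.08), 246 kb above. Between C26-TDCA and C26, 1 of the 4 genes near the chromosome 1 cluster and 0 of the 7 around Fmo5 were called, beside 1.97% of all genes. The called gene was Prrc2c, higher in C26-TDCA (0.52, SE 0.14, edgeR adjusted p = 0.0484). That value is close to the threshold of 0.05, and whether the call holds in other fits was not examined. Prrc2c was not called in C26-TDCA against CT (0.06, SE 0.15, edgeR adjusted p = 0.747).

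The genes whose pattern over the 22 libraries lay closest to a member were found by the root mean square difference of centred log2 CPM, among 9361 genes averaging at least 5 CPM. For Fmo1 these were Slc2a2, which encodes the hepatocyte glucose transporter GLUT2 (difference 0.23), Ugt2b1 (0.27), Gstm1 (0.28), Pdilt (0.30) and Akr1c14 (0.31). Slc2a2 averaged 49.1 CPM in C26 and 416 CPM in CT. For Fmo2 they were Usp2 (0.38), Bdh2 (0.45), Aacs (0.46), Ugp2 (0.46) and Tsku (0.47), all farther from it than those of the other members. For Fmo5 they were Apol7a (0.23), the paraoxonase gene Pon1 (0.24), the clock-output factor gene Tef (0.25), the growth hormone receptor gene Ghr (0.26) and Syt1 (0.27), and for Fmo4 they were Gm17491 (0.14), Sbds (0.16), Vdac2 (0.17), Osbpl1a (0.18) and Mtfr1 (0.18). Ugt2b1 and Gstm1 belong to families whose near-identical copies may share reads. Between members the difference ranged from 0.59 (Fmo4 and Fmo5) to 1.35 (Fmo1 and Fmo4). The measure describes these libraries and is dominated by the gap between tumour and sham livers.

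Of the genes that supply the cofactors of FMOs, most of those for FAD rose and more of those for NADPH fell than rose. Of 5 genes of FAD supply, 4 rose and 1 fell in C26 (median log2 fold change 0.56, beside -0.00 for all genes tested, of which 28.9% were called higher). Rfk, the riboflavin kinase, averaged 117 ± 10.4 CPM in C26 and 58.7 ± 5.99 CPM in CT, and Flad1, the FAD synthase, rose by 0.56 (SE 0.07), while Slc25a32, known as the mitochondrial folate and FAD carrier, fell by 0.55 (SE 0.08). Of 9 genes of NADPH supply, 2 rose, 5 fell and 2 were not called (median -0.43), beside 29.2% of all genes called lower. Me1, the cytosolic malic enzyme, averaged 38.1 ± 22.1 CPM in C26 and 185 ± 20.7 CPM in CT, and Idh1, the cytosolic isocitrate dehydrogenase, fell by 0.98 (SE 0.15), while H6pd, the glucose-6-phosphate dehydrogenase of the endoplasmic reticulum, rose by 0.98 (SE 0.13). Between C26-TDCA and C26 edgeR and DESeq2 called 0 of these 14, and 4 had an unadjusted p under 0.05, as had 15.8% of all genes, the lowest being 0.00587 for the riboflavin transporter gene Slc52a2.

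The P450 system, which handles many of the same substrates, fell alongside. Of all genes tested, 29.2% were called lower and 28.9% higher in C26 against CT. All 6 genes listed for electron donors and partners of P450s fell in C26 (median -1.02), among them Cyb5r3, the cytochrome b5 reductase (169 ± 46.1 CPM in C26 and 433 ± 42.1 CPM in CT), and Por, the P450 reductase that FMOs do not use (log2 fold change -0.70, SE 0.24, adjusted p = 0.0164). In C26-TDCA against CT, where 28.2% of all genes were called lower, 5 of the 6 fell and Por was not called (-0.45, SE 0.24, edgeR adjusted p = 0.115). Of 21 P450 genes of drug metabolism, 17 fell, 1 rose and 3 were not called in C26 against CT (median log2 fold change -1.96). Cyp2d10 (-1.05, SE 0.08), Cyp2d9 (-1.77, SE 0.15) and Cyp2d22 (-0.86, SE 0.08) fell, and Cyp3a13 rose by 1.85 (SE 0.08). Of 12 genes of other amine and xenobiotic oxidation, 9 fell, 1 rose and 2 were not called (median -1.09). Ephx1 and Ephx2, the epoxide hydrolases, fell by 2.98 (SE 0.20) and 1.81 (SE 0.12), and Aox1, an aldehyde oxidase, fell by 2.05 (SE 0.15). Of 6 measured genes of taurine synthesis and use, 5 fell and 1 rose (median -0.65). Baat, which joins bile acids to taurine or glycine, fell by 0.69 (SE 0.09), and Slc6a6, the taurine transporter, fell by 0.62 (SE 0.09). Csad, which makes the hypotaurine that the Fmo1 enzyme can oxidise, averaged 82.0 ± 22.5 CPM in C26 and 177 ± 37.3 CPM in CT, and Cdo1, the cysteine dioxygenase before it, fell by 0.85 (SE 0.14). Between C26-TDCA and C26 edgeR and DESeq2 called 0 of the 45 genes in these 4 lists, and 2 had an unadjusted p under 0.05, beside the same 15.8% of all genes.

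**Figure D4:**
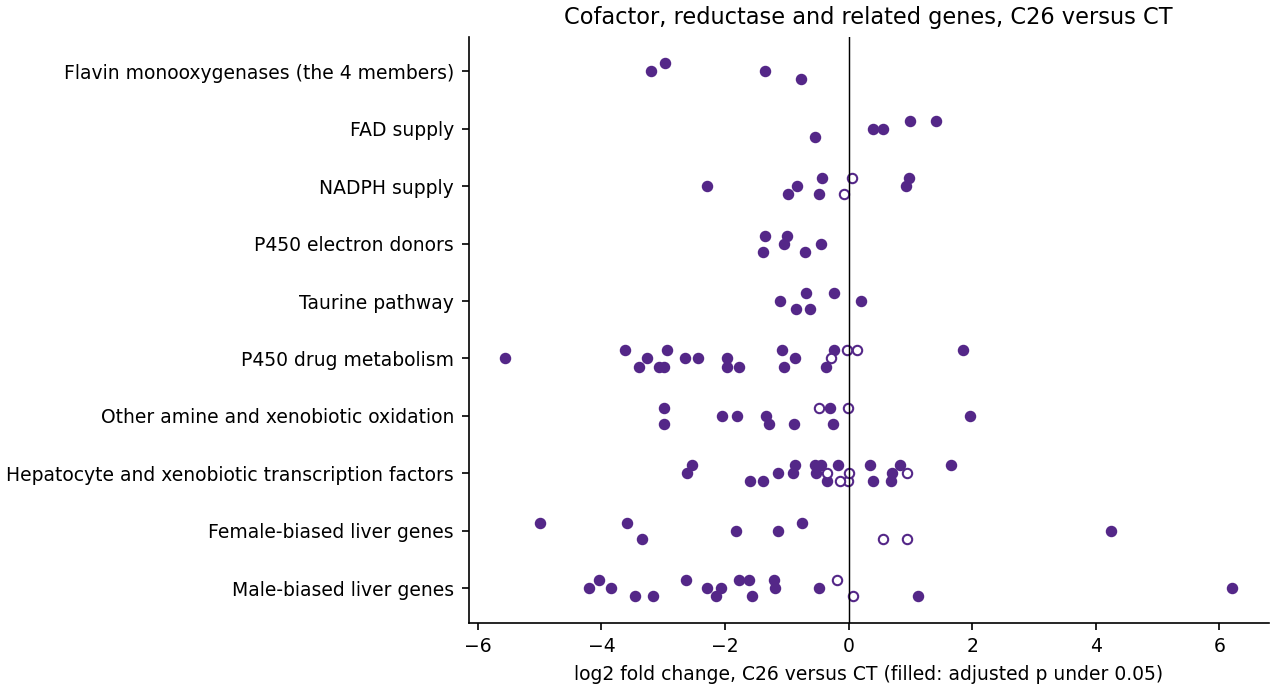
Log2 fold change of C26 versus CT (x axis) for each tested gene of 9 lists and for the 4 members at the top, with 1 point per gene, filled where the edgeR adjusted p is under 0.05; small vertical offsets only separate points. The 4 members lie between -3.20 and -0.77, the genes listed for electron donors and partners of P450s are all below 0, and the genes of FAD supply lie mostly above 0.

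Factors that control hepatocyte and xenobiotic genes were mixed. Of 23, 6 rose, 12 fell and 5 were not called in C26 (median -0.35), beside 28.9% of all genes called higher and 29.2% called lower. Nfe2l2, the oxidative stress factor NRF2, fell by 0.90 (SE 0.07), Foxo3 by 1.14 (SE 0.09) and the xenobiotic receptor Nr1i3 by 2.61 (SE 0.25), while the oestrogen receptor gene Esr1 averaged 44.6 ± 5.64 CPM in C26 and 14.1 ± 4.51 CPM in CT. Among other xenobiotic receptor genes, Ahr rose by 0.71 (SE 0.11) and Nr1i2 was not called (-0.14, SE 0.09, edgeR adjusted p = 0.216). Between C26-TDCA and C26, 1 of the 23 was called, beside 1.97% of all genes. It was the glucocorticoid receptor gene Nr3c1, at 71.1 ± 8.41 CPM in C26-TDCA and 55.2 ± 8.93 CPM in C26 (log2 fold change 0.37, SE 0.09, edgeR adjusted p = 0.0395). This call was lost in 3 of 8 alternative fits and in 11 of 22 fits that left out 1 library (6 of C26-TDCA and 5 of C26). Genes with a sex difference in mouse liver moved mostly downwards whichever the bias. Of 19 male-biased genes, 15 fell, 2 rose and 2 were not called in C26 against CT (median -1.77). Of 9 measured female-biased genes, 6 fell, 1 rose and 2 were not called (median -1.15), beside the same 29.2% of all genes called lower and 28.9% called higher. Acot3, an acyl-CoA thioesterase gene, averaged 0.373 CPM in C26 and 11.9 CPM in CT (edgeR adjusted p = 1.92e-10). Cyp2a22 fell by 3.59 (SE 0.40) and Cyp17a1 rose by 4.24 (SE 0.58) among the female-biased, and Ugt2b1 fell by 3.46 (SE 0.33) and Egfr rose by 1.13 (SE 0.09) among the male-biased genes.

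Markers of liver cell types differed between the groups beside the members. Of all genes tested, 28.9% were called higher and 29.2% lower in C26 against CT. Of 9 hepatocyte markers, 3 rose, 3 fell and 3 were not called in C26 (median -0.04), and their summed level was 30207 to 38798 CPM in C26 and 60848 to 69765 CPM in CT, with Alb, the albumin gene, averaging 15181 CPM in C26 livers, against 42189 CPM in CT livers. Of 11 pericentral markers 1 rose and 5 fell, and of 10 periportal markers 3 rose and 5 fell. Of the markers of other cells, 9 of 12 for sinusoidal endothelium rose and 0 fell, 11 of 14 for stellate cells and fibroblasts rose and 2 fell, 11 of 12 for Kupffer cells rose and 0 fell, 11 of 12 for monocytes and neutrophils rose and 0 fell, and 2 of 9 measured for cholangiocytes rose and 1 fell. The summed levels in C26 and CT did not overlap for endothelium (481 to 838 CPM in C26, 392 to 469 CPM in CT), stellate cells (449 to 697 and 296 to 388 CPM), Kupffer cells (488 to 747 and 298 to 345 CPM), monocytes and neutrophils (33.8 to 72.6 and 8.83 to 12.8 CPM) and cholangiocytes (270 to 794 and 54.8 to 76.2 CPM). No share over all genes was computed to set beside these sums. The cholangiocyte sum was carried by Spp1, which encodes the secreted protein osteopontin and averaged 411 CPM in C26 and 18.8 CPM in CT, and by Sox9 (27.3 CPM in C26 and 1.59 CPM in CT), while the keratin genes Krt19 and Krt7, Epcam, Tspan8, Cldn7 and Ehf were not called and Slc4a2 fell. Between C26-TDCA and C26, where 1.97% of all genes were called, 1 marker was called higher for hepatocytes (Apob, 0.38), 1 for endothelium (Ptprb, 0.68) and 1 for stellate cells (Hgf, 0.73). Whether these calls hold in other fits was not examined. The count of all genes called fell from 291 to 45 with only the 2 groups and to 16 after removal of the length and GC trend. The part of the listed markers' cells in the lower FMO levels was not tested.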

How the data were processed

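PolyA RNA of 22 livers was measured by RNA-seq. The authors deposited raw read counts per Ensembl gene, 1 column per mouse, and columns were assigned by name. The submitters' processing notes name GRCm38 and, among other tools, featureCounts 2.0.3, HISAT2 2.2.1 and Trimmomatic 0.40, per the labels. The sources used here do not give the annotation release, the strand setting or the treatment of reads shared by family members; read sharing would blur differences between FMO genes. Symbols, positions and exon lengths are from GENCODE M21 (15438 of 15448 genes matched), promoter windows from RefSeq.

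All genes passing filterByExpr (minimum count 10; 14785 kept) were fitted with edgeR 4.0.16 in R 4.3.3, with TMM scaling, 1 mean per group and the quasi-likelihood F test, and p-values were adjusted by Benjamini-Hochberg over all genes at 0.05. SEs were obtained by dividing the size of each log2 fold change by the root of its F statistic, and intervals are 1.96 SE to each side. At these depths 3 counts were 0.106 to 0.182 CPM. Log2 ratios used counts plus 0.5. Alternatives were DESeq2 1.42.0, limma 3.58.1 (voomWithQualityWeights), 2 other scalings, no filter, 2 groups only, a replicate block, removal of a length and GC trend (loess span 0.3), and each library left out. The fit was also run on simulated counts in which 200 of 14785 genes changed. It recovered 93.5% of these and called 6 unchanged genes. With so few changed genes, it does not test the scaling where 58.1% of genes are called, as in C26 versus CT. The members and gene lists were chosen with earlier results of these data known, and a few genes of the lists are not reported here. Genes named are the members, the 5 nearest in pattern, those flanking each locus and some called genes of each list. These called genes were picked for their role among the up to 4 with the smallest p in a comparison. Por, Ahr, Nr1i2, Cyp17a1, the cholangiocyte markers, Prkab2, Chd1l and Gorab were added for their role or place after their values were seen.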

Additional observations from a re-analysis of the deposited data

Results flagged for a closer look

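Within each group the highest and lowest library were compared with the nearest other one (Dixon's test at the 95% level) for Fmo1, Fmo2, Fmo4 and Fmo5 and for the 6 ratios between members, 30 groups in all, of which 4 were flagged; chance flags about 1 in 20 groups. Fmo2 in C26 was flagged for library 08, at 40.5 CPM with the next at 24.0 CPM. In C26-TDCA, library 02 stood apart in the log2 ratio of Fmo2 to Fmo5, at -2.24 with the next at -3.11, and in that of Fmo4 to Fmo5, at -2.87 with the next at -3.62; this is the library with the lowest Fmo5 level of its group. In CT, library 05 had a log2 ratio of Fmo4 to Fmo5 of -4.35, with the next at -4.72.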

How the results depend on the processing

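For each of the 4 members in each of the 3 comparisons, direction of a called change and side of the threshold were the same in all 8 alternative fits and in all 22 fits without 1 library. In C26 versus CT the log2 fold changes without 1 library ran from -3.47 to -3.08 for Fmo1, -3.19 to -2.86 for Fmo2, -0.83 to -0.72 for Fmo4 and -1.50 to -1.24 for Fmo5. The count of all genes called between C26-TDCA and C26 was less stable: 291 in the edgeR fit, 551 with DESeq2, 468 with voomWithQualityWeights, 45 with only the 2 groups and 16 (9 higher, 7 lower, against 256 and 35) after removal of the length and GC trend, and 59 (without C26-TDCA 04) to 594 (without C26 01) when 1 library was left out; the cause was not tested. The labels do not say that equal replicate numbers mark a shared batch, so the numbers were not used as pairs in the main fit. The correlation of same-numbered deviations was over 0.1 in 5 of 8 pairs of C26-TDCA and C26 (-0.20 to 0.34), 1 of 6 of C26-TDCA and CT and 0 of 6 of C26 and CT. Differently numbered libraries were not correlated for comparison, so these values cannot show whether a batch is shared. With the replicate block, Fmo1 was at -3.09, Fmo2 at -2.89, Fmo4 at -0.72 and Fmo5 at -1.28 in C26 versus CT, and 280 genes were called between C26-TDCA and C26. Paired by number (6 pairs), the ratios between members in C26 versus CT were -2.40 (Fmo1 to Fmo4), -1.84 (Fmo1 to Fmo5), -2.16 (Fmo2 to Fmo4) and -1.61 (Fmo2 to Fmo5). Each had an exact sign-flip permutation p of 0.0312, the smallest that 6 pairs allow, and an adjusted p of 0.0938, so these values are at the floor of the paired test and say nothing on stability. Without 1 library, the ratio of Fmo4 to Fmo5 in C26 versus CT ran from 0.55 to 0.86 and that of Fmo2 to Fmo4 in C26-TDCA versus C26 from 0.13 to 0.36. The lowest count of any member in a library was 231.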
